A study of Rattus norvegicus with 18 samples.

Results

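Genes that move cholesterol out of cells, or into and out of its stored ester, were followed in rat liver after 8 weeks of feeding. There were 10, chosen by name: Nr1h3, Nr1h2, Abca1, Abcg1, Abcg5, Abcg8, Mylip, Nceh1, Soat2 and Npc1. In the platform annotation 8 of the 10 had a probe set under that symbol, 14 probe sets in all, against 14217 genes in the whole table. Soat2, which esterifies cholesterol in liver and intestine, and Npc1, which lets cholesterol leave the lysosome, were not analysed here, so that the ester part of the set rested on Nceh1 alone. Where a gene had several probe sets, the one with the highest mean signal stands for it.

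The livers came from adult male Sprague Dawley rats of 3 groups with 6 arrays each. One group ate a diet rich in fat and received an extract of pomegranate skin, 150 mg/kg/day (HFD+PE), another ate that diet alone (HFD), and the last ate chow. All rats had an overnight fast before liver collection, and the labels call the HFD livers fatty and both other groups normal. Nothing in the labels ties an array to a separate cage or litter, so that p-values measure the spread between these samples. Values are log2 signals from Affymetrix arrays, background-corrected, normalized between arrays and summarized per probe set by the authors with RMA, and rounded to 0.1. One unit is a doubling, and levels of different probe sets are not compared.

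Facts of the whole series that touch these genes were few. In 3 of 153 pairs of arrays (HFD+PE 3 and 4, HFD 1 and 2, chow 3 and 4) 0 probe sets were more than 2 log2 units apart, while each of the remaining 150 pairs had 18 to 109 such probe sets. The arrays of each of those 3 pairs were averaged as if from 1 rat, so every group has 5 animals here. For HFD+PE 3 and 4 this rested on that cutoff. The SD of their difference (0.2598) was no smaller than that of HFD 3 and 5 (0.2596). Hybridization controls, transcripts added to each sample, averaged 12.35 to 12.92 on 5 arrays (2 HFD+PE, 0 HFD and 3 chow) and 11.40 to 11.84 on the other 13. Fits on the lower set alone and fits with the set as a covariate are given beside the values they move. The mean of 11 of 12 listed hepatocyte markers was 13.2 to 13.3 in HFD+PE, 13.1 to 13.3 in HFD and 13.0 to 13.3 in chow animals.

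Liver cells sense oxysterols, oxidised forms of cholesterol, through the nuclear receptors LXR alpha and LXR beta. Activated LXR switches on exporters that pass cholesterol to high density lipoprotein or into bile, and a ubiquitin ligase that removes the LDL receptor. Cholesterol that is not exported is stored as ester and has to be hydrolysed before it can be used or leave the cell.

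Promoter windows of 300 bases, 250 before and 50 after the annotated start, are shown for the genes on which the results turn; they come from RefSeq on the rat build GRCr8. The table held windows for 7 of the 8 measured genes, all except Abcg1. Abcg5 and Abcg8 lie head to head on opposite strands of chromosome 6, with 205 bases between their starts, and their windows share 295 bases, so that 1 sequence serves for both. Capitals mark matches to any of 7 motifs searched on both strands: the nuclear receptor hexamer AGGTCA, DR4 (a pair of such hexamers 4 bases apart in the same direction), the sterol regulatory element core, the E-box CACGTG, the GC box GGGCGG, the TATA box TATAAA and CCAAT.
Abcg5 and Abcg8, chr6:15717686-15717985, plus strand, from Abcg5: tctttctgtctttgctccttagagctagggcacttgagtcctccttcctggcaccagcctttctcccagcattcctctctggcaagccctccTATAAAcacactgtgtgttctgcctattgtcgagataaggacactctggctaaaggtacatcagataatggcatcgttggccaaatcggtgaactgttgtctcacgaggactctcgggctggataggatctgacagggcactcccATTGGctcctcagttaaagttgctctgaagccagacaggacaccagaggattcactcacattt
Nceh1, chr2:112003427-112003726, plus strand: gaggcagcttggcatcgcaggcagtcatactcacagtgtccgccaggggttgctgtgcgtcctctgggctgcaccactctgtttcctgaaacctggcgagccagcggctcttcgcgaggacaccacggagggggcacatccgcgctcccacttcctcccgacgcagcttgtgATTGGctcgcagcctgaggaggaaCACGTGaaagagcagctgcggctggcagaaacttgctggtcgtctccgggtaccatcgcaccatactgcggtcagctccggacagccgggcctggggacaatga
Abca1, chr5:72596424-72596723, minus strand: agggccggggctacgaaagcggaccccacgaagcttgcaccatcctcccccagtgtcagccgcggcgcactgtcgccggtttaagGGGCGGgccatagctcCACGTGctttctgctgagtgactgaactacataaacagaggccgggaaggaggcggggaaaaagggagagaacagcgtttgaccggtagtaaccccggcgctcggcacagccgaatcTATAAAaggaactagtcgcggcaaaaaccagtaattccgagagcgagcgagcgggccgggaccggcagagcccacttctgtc

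The shared Abcg5 and Abcg8 window held TATAAA 158 bases before the Abcg5 start, on its strand, and CCAAT on the other strand 13 bases before that start. Nceh1 had an E-box 54 bases before its start and CCAAT, on the other strand, 78 bases before it. Abca1 had a TATA box, an E-box and a GC box. None of these windows, nor those of Nr1h3, Nr1h2 and Mylip, held an exact copy of AGGTCA, DR4 or the sterol regulatory element core. Variant forms were not searched, so a site that departs from these letters would be missed. Over all 33469 windows of this length the hexamer was in 16.2%, DR4 in 0.00598%, the sterol element core in 0.484%, the E-box in 6.42%, the GC box in 33.1%, the TATA box in 14.2% and CCAAT in 37.5%. A match is a run of letters and not a measured site, and the absence of an exact form as rare as DR4 says little.

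Nceh1, the neutral cholesteryl ester hydrolase of the endoplasmic reticulum, differed most by p-value among the measured genes. Its level was 9.2, 8.6, 8.5, 8.7 and 8.1 in the 5 HFD+PE animals, 7.85, 8.1, 8.3, 8.6 and 8.5 in HFD and 7.9, 7.7, 7.7, 7.8 and 7.7 in chow. Every HFD+PE liver lay above every chow liver, whereas the HFD livers overlapped both groups. The level averaged 8.62 ± 0.40 in HFD+PE, 8.27 ± 0.30 in HFD and 7.76 ± 0.09 in chow (SD, n = 5 animals each).

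Against chow, Nceh1 was higher by 0.86 in HFD+PE (SE 0.17, 95% interval 0.51 to 1.21), a 1.82-fold level, with an unadjusted p of 8.37e-05 and an adjusted p of 0.104 in limma over 14217 genes. That p ranked 8 among all genes and did not pass 0.05 after adjustment. In HFD the gene was higher than in chow by 0.51 (SE 0.17, interval 0.16 to 0.86, adjusted p = 0.558). HFD+PE exceeded HFD by 0.35 (SE 0.17, interval -0.00 to 0.70, adjusted p = 0.993). The limma F test over the 3 groups gave an adjusted p of 0.230 for Nceh1. Neighbouring groups in the order HFD+PE, HFD, chow therefore did not differ past the threshold. The 3 comparisons share animals and are not separate support for one another.

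The direction of HFD+PE against chow held within both sets of hybridization controls. HFD+PE 3-4 and chow 3-4 had an array in each set, so the sets are not separate checks. On arrays of the higher set, Nceh1 was at 9.2 and 8.5 in HFD+PE and at 7.9, 7.7 and 7.8 in chow. On arrays of the lower set alone, the difference between HFD+PE and chow was 0.78. Leaving out 1 animal at a time gave 0.72 to 0.99 for it. The gene passed over the whole table (adjusted p = 0.0148) when all 18 arrays were counted as separate animals. The difference between HFD+PE and HFD rested more on 1 liver, and was 0.21 without HFD+PE 1, the animal with the highest level.

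**Figure D1:**
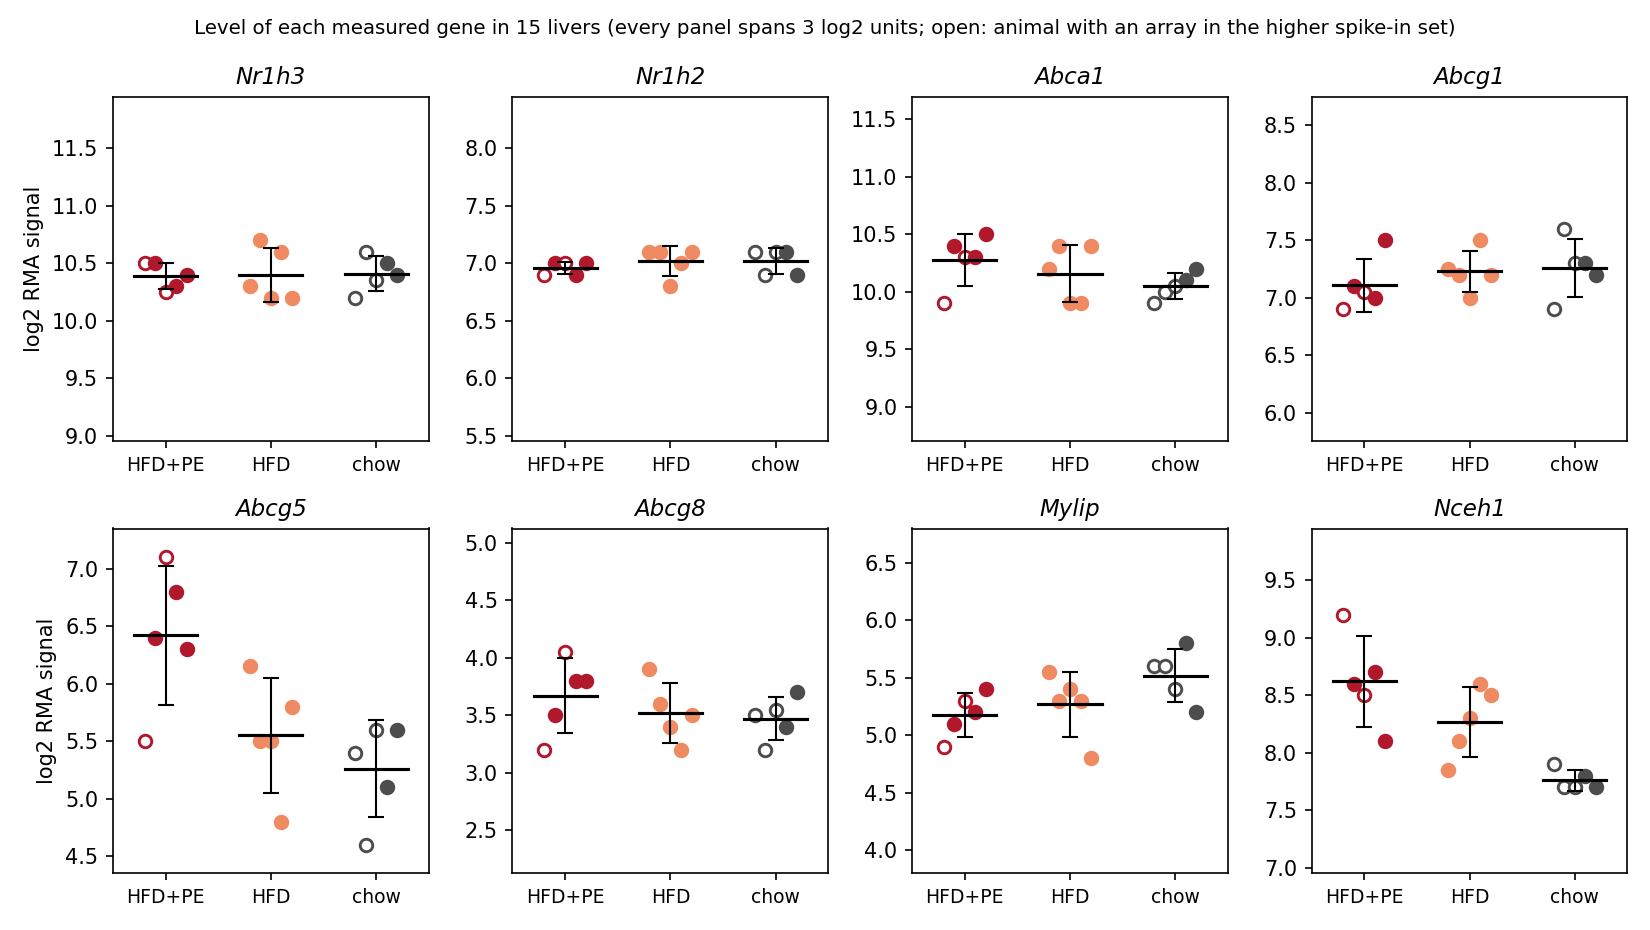
Level of the 8 measured genes (log2 RMA signal) in HFD+PE, HFD and chow livers; each point is an animal, the long bar the mean and the whiskers the SD (n = 5 per group), and open points mark animals with an array in the higher set of hybridization controls. Nceh1 of the HFD+PE animals (8.1 to 9.2) lies above all chow animals (7.7 to 7.9), Abcg5 averages 6.42 in HFD+PE and 5.26 in chow, and the receptors Nr1h3 and Nr1h2 overlap throughout.

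Among the exporters, Abcg5 had the largest differences of means in HFD+PE, and none of them passed over the whole table. The 2 proteins form the heterodimer that pumps cholesterol and plant sterols into bile. Abcg5 was at 5.5, 6.4, 7.1, 6.8 and 6.3 in the HFD+PE animals, at 6.15, 5.5, 5.5, 4.8 and 5.8 in HFD and at 5.4, 4.6, 5.6, 5.1 and 5.6 in chow. Of the HFD+PE livers, 4 lay above every HFD and chow liver and HFD+PE 1 lay among them. Group means were 6.42 ± 0.61 in HFD+PE, 5.55 ± 0.50 in HFD and 5.26 ± 0.42 in chow (SD, n = 5 each).

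Abcg5 was higher in HFD+PE than in chow by 1.16 (SE 0.28, interval 0.56 to 1.76), a 2.23-fold level, and higher than in HFD by 0.87 (SE 0.28, interval 0.27 to 1.47). Neither passed over the whole table in limma (adjusted p = 0.134 and 0.993; unadjusted p = 0.000754 and 0.00683, ranks 78 and 50). HFD exceeded chow by 0.29 (SE 0.28, interval -0.31 to 0.89), but by 0.0317 with the set of hybridization controls as a covariate, by 0.125 without chow 2, by 0.14 without HFD 1-2 and by 0.48 without HFD 5. The difference between HFD+PE and chow stayed at 0.99 to 1.39 without any 1 animal, and was 1.28 on arrays of the lower set of hybridization controls. Counted as 18 separate arrays it passed (adjusted p = 0.0348). On arrays of the higher set, the gene was at 5.5 and 7.1 in HFD+PE and at 5.4, 4.6 and 5.8 in chow, which overlap. Arrays of chow 3-4 differed by 0.4 for Abcg5 (5.8 and 5.4), more than HFD minus chow. Those of HFD 1-2 and HFD+PE 3-4 differed by 0.1 and 0.0.

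Abcg8 was measured by a dim probe set, with 16.6% of all probe sets dimmer. Its level was 3.2, 3.5, 4.05, 3.8 and 3.8 in HFD+PE, 3.9, 3.6, 3.4, 3.2 and 3.5 in HFD and 3.5, 3.2, 3.55, 3.4 and 3.7 in chow. The groups overlapped, and both arrays of the animal HFD+PE 3-4 differed by 0.5 between themselves (4.3 and 3.8). HFD+PE exceeded chow by 0.20 (SE 0.15, interval -0.12 to 0.52) and HFD by 0.15 (SE 0.15, interval -0.17 to 0.47). Without HFD+PE 3-4 these differences were 0.105 and 0.055, and without HFD+PE 1 they were 0.32 and 0.27. Whether the change of Abcg8 was smaller than that of Abcg5 was not tested, and whether its probe set was above background is unknown.

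The partners nevertheless varied together from animal to animal. After group means were removed, Abcg5 and Abcg8 correlated over the 15 animals with a Pearson r of 0.92 and a Spearman rho of 0.83 (permutation p = 9e-05 and 0.00093; adjusted over 28 pairs of genes, 0.00252 and 0.026). Without the 2 animals farthest from the median of Abcg5, HFD+PE 1 and HFD 5, r was 0.85. Over the 10 animals with no array in the higher set of hybridization controls, r was 0.83 (permutation p = 0.0248). Of 14216 other genes, Abcg8 had the highest r to Abcg5, and Abcg5 the highest r to Abcg8, a description over 15 animals. The next were Klrh1 for Abcg5 (r = 0.88) and Rmc1 for Abcg8 (r = 0.92). The windows of Abcg5 and Abcg8 share 295 bases read from opposite strands, and any part of that in the correlation was not tested.

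**Figure D2:**
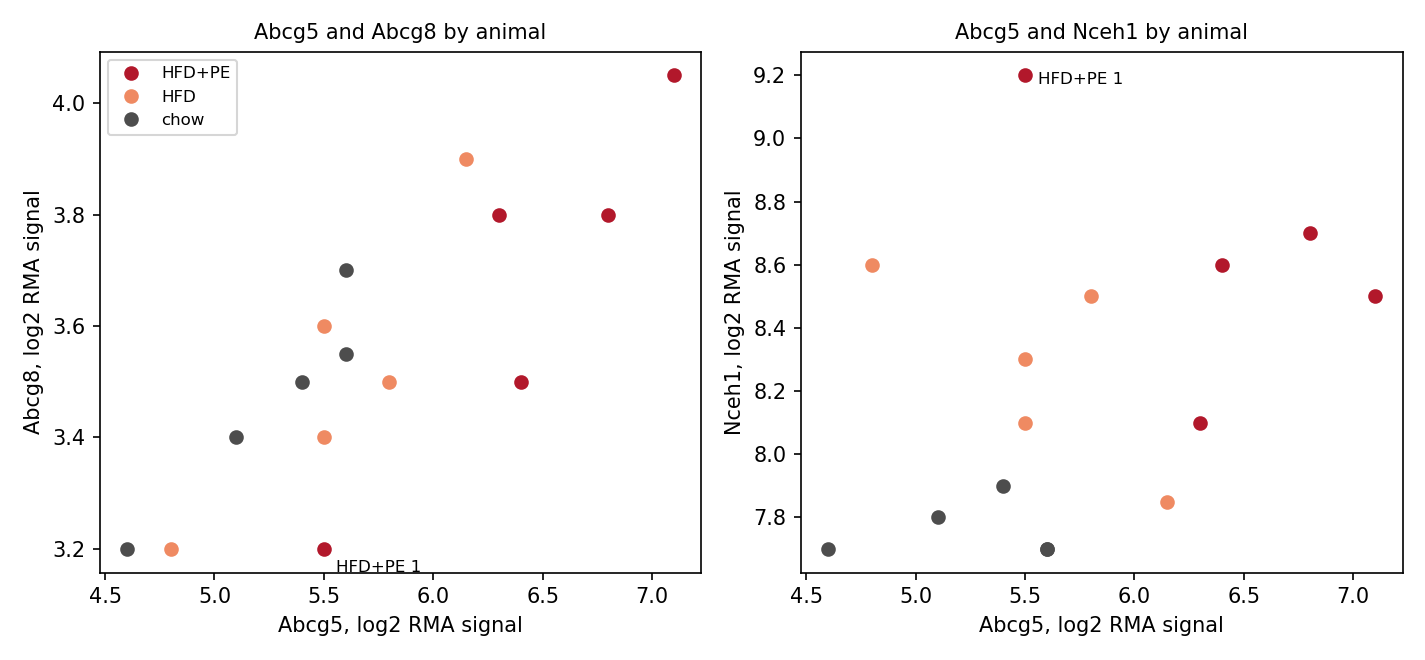
Level of Abcg8 (left) and Nceh1 (right) against that of Abcg5 in each of the 15 animals, all in log2 RMA signal and coloured by group; 2 chow animals coincide at the same point on the right. Abcg8 follows Abcg5 within the groups (r = 0.92 with group means removed), while HFD+PE 1 has the highest Nceh1 (9.2) and the lowest Abcg5 of its group (5.5).

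The liver highest in Nceh1 was not the one highest in Abcg5, although HFD+PE 5 was high in both (8.7 and 6.8). HFD+PE 1 had the highest Nceh1 of all animals (9.2) and the lowest Abcg5 and Abcg8 of its group (5.5 and 3.2). With group means removed, Abcg8 and Nceh1 had an r of -0.71 (rho -0.67, permutation p = 0.0175 and 0.0208; adjusted p = 0.163 and 0.194), which was -0.46 without the 2 farthest animals and -0.74 over the 10 animals outside the higher set. For Abcg5 and Nceh1 r was -0.52 (rho -0.38, permutation p = 0.0962 and 0.228; adjusted p = 0.272 and 0.580). That relation rested on HFD+PE 1 and HFD 5, without which r was -0.05. Nr1h3 and Abcg5 had an r of -0.64 (rho -0.63, permutation p = 0.0115 and 0.0149; adjusted p = 0.161 and 0.194). It was -0.67 without HFD 3 and HFD 5, farthest from the Nr1h3 median, and -0.60 over the 10 animals outside the higher set (permutation p = 0.196). Of the 28 pairs, 1 passed after adjustment, Abcg5 with Abcg8.

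**Figure D3:**
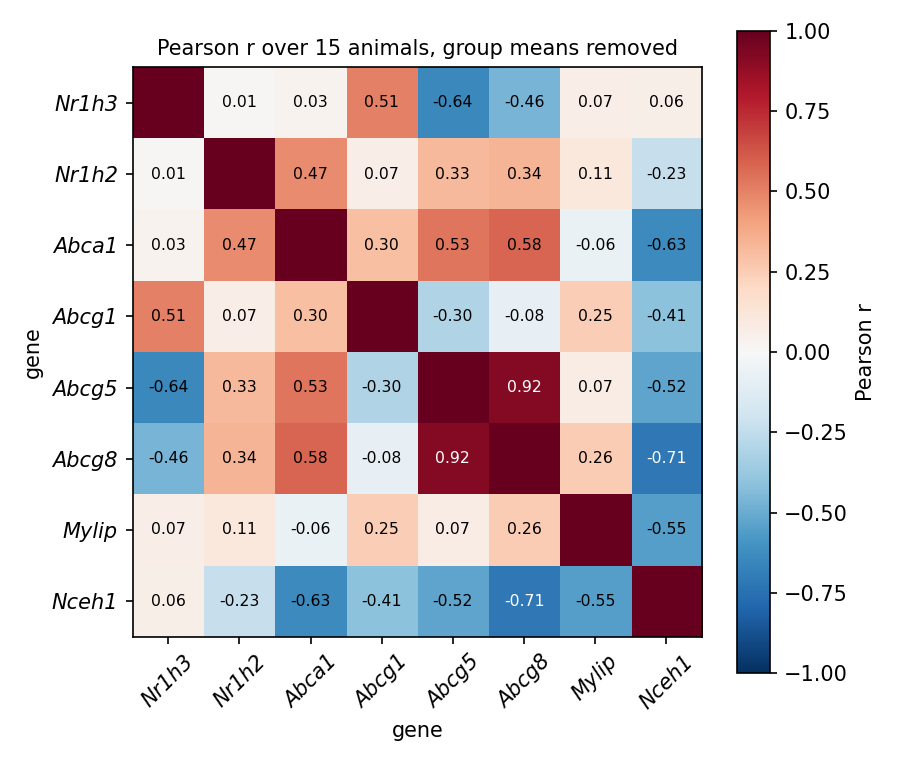
Pearson r between each pair of the 8 measured genes over 15 animals, after the mean of each group was removed; red is positive and blue negative, on a scale of -1 to 1. The pair Abcg5 and Abcg8 stands at 0.92, Nceh1 is negative to Abcg8 (-0.71) and Abca1 (-0.63), and Nr1h3 is negative to Abcg5 (-0.64).

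Both receptors had nearly equal means in the 3 groups. Nr1h3 encodes LXR alpha, the main form in liver, and was at 10.39 ± 0.11 in HFD+PE, 10.40 ± 0.23 in HFD and 10.41 ± 0.15 in chow (SD, n = 5 each). The single livers ranged over 10.25 to 10.5 in HFD+PE, 10.2 to 10.7 in HFD and 10.2 to 10.6 in chow. Its difference between HFD+PE and chow was -0.02, with an interval of -0.25 to 0.21. Nr1h2, the widely expressed LXR beta, was at 6.96 ± 0.055 in HFD+PE, 7.02 ± 0.13 in HFD and 7.02 ± 0.11 in chow. Its difference between HFD+PE and chow was -0.06 (interval -0.22 to 0.10), and its second, dimmer probe set gave -0.09 (SE 0.08). For Nr1h2 the arrays of chow 3-4 differed by 0.4 (6.9 and 7.3), and those of HFD 1-2 and HFD+PE 3-4 by 0.0. The intervals bound a change of either receptor's probe set, not the activity of the protein.

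Abca1 and Abcg1, which hand cholesterol to lipid-poor apolipoprotein and to formed high density lipoprotein particles, showed small differences. Abca1 was at 9.9, 10.4, 10.3, 10.3 and 10.5 in HFD+PE, at 10.2, 10.4, 9.9, 9.9 and 10.4 in HFD and at 9.9, 10, 10.05, 10.1 and 10.2 in chow. In 4 of 5 HFD+PE livers it was above every chow liver, and HFD+PE 1 was level with the lowest. HFD+PE exceeded chow by 0.23 (SE 0.12, interval -0.03 to 0.49) in limma (adjusted p = 0.535). The 3 other Abca1 probe sets gave 0.24, 0.28 and 0.02 for the same difference (SE 0.15, 0.16 and 0.17). Between HFD and chow the 4 probe sets gave 0.11, 0.26, 0.19 and 0.00, in the same order.

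Abcg1 averaged 7.11 ± 0.23 in HFD+PE, 7.23 ± 0.18 in HFD and 7.26 ± 0.25 in chow. HFD+PE minus chow was -0.15 (SE 0.13, interval -0.43 to 0.13), but -0.065 without chow 2 and -0.25 without HFD+PE 6. The 2 other Abcg1 probe sets gave -0.06 and 0.02. The Abcg1 probe sets also differed in sign for HFD+PE against HFD, with -0.12 for the brightest and 0.02 and 0.18 for the others, in the same order.

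Mylip encodes the ubiquitin ligase, also called IDOL, that marks the LDL receptor for degradation. It was at 4.9, 5.1, 5.3, 5.2 and 5.4 in HFD+PE, at 5.55, 5.3, 5.4, 5.3 and 4.8 in HFD and at 5.6, 5.6, 5.4, 5.8 and 5.2 in chow. The groups overlapped, with chow 6 below 2 of the HFD+PE livers. HFD+PE minus chow was -0.34 (SE 0.14, interval -0.63 to -0.05; unadjusted p = 0.0254 and adjusted p = 0.361 in limma), and it was -0.23 on arrays of the lower set of hybridization controls. HFD minus chow was -0.25 (SE 0.14, interval -0.54 to 0.04). Arrays of the same animal differed by 0.4 for this probe set in 2 of 3 pairs, more than any of the 3 differences between groups, that between HFD+PE and chow included. Leaving out 1 animal moved HFD minus chow to between -0.33 and -0.13, and HFD+PE minus HFD (-0.09) to between -0.21 and -0.02, the extremes being without chow 6, HFD 6, HFD 1-2 and HFD+PE 1.

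Counted over the 8 measured genes, 0 passed an adjusted p of 0.05 in any comparison, as did 0 of all 14217 genes (percent called, 0%). At an unadjusted p under 0.05 in limma, 2 were higher and 1 was lower in HFD+PE than in chow (Nceh1, Abcg5 and Mylip), where 11.1% of all genes had such a p (6% higher, 5.14% lower). In HFD+PE against HFD it was 1 gene, Abcg5, which was higher, where 2.7% of all genes had one (1.64% higher, 1.06% lower). In HFD against chow it was 1 gene, Nceh1, also higher, where 7.65% had one (4.08% higher, 3.57% lower). Nceh1 alone had groups that did not overlap, in HFD+PE against chow, as had 0.682% of all genes on the higher side and 0.732% on the lower. In HFD+PE against HFD those shares were 0.0774% and 0.0563%, in HFD against chow 0.309% and 0.211%, and 0 of the 8 genes were among them. The median change of the 8 was 0.09 in HFD+PE against chow, 0.06 in HFD+PE against HFD and 0.03 in HFD against chow, beside 0.01, 0.00 and 0.00 over all genes.

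**Figure D4:**
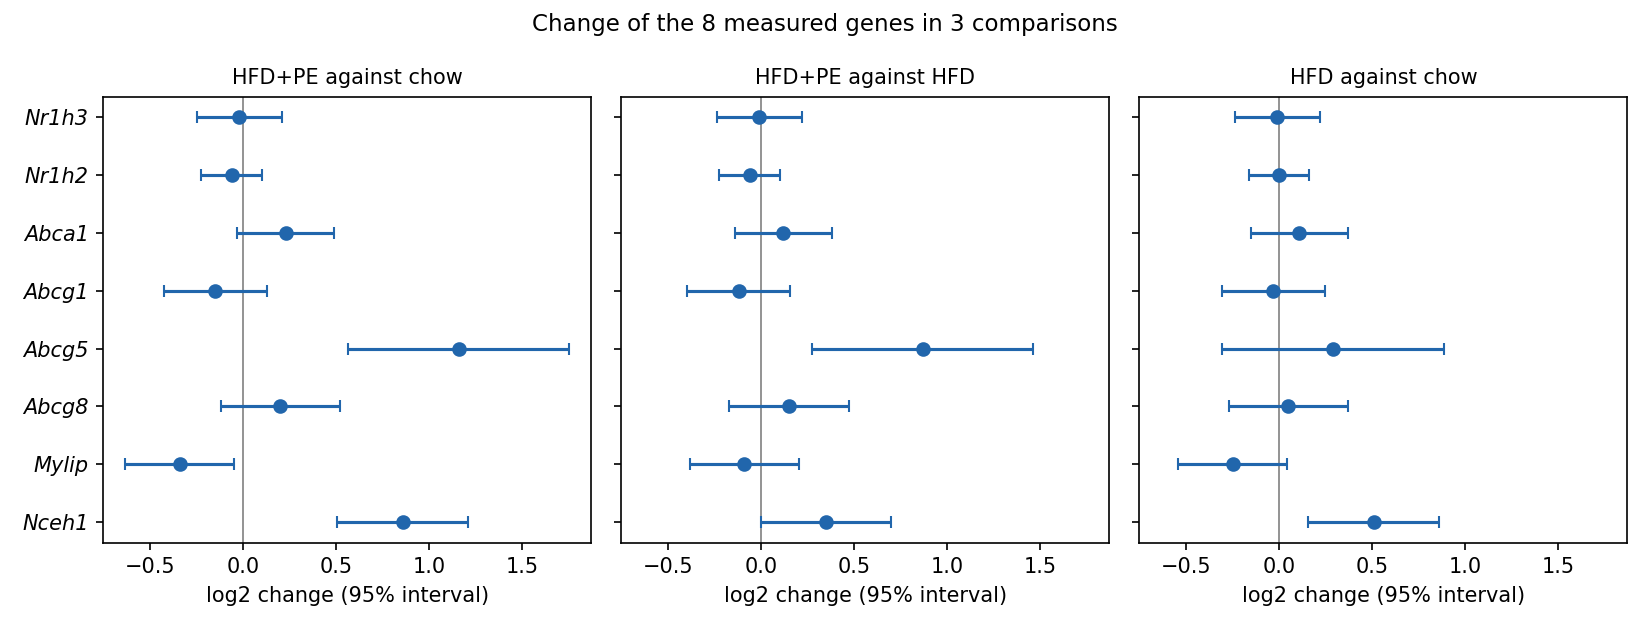
Log2 change of the 8 measured genes with its 95% interval from limma, with 1 panel per comparison of the groups. Intervals of Nceh1 and Abcg5 lie above 0 and that of Mylip below 0 in HFD+PE against chow, while those of both receptors span 0 in every panel.

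Genes of a list made for cholesteryl ester turnover lay on both sides of 0. The list also held thiolases and triglyceride enzymes, so its counts and median do not describe ester turnover alone. In this list 16 of 17 genes were measured, and in HFD+PE against chow 3 had an unadjusted p under 0.05 on the higher side and 2 on the lower, with a list median of 0.04. Over all genes 6% had such a p on the higher side in that comparison and 5.14% on the lower. These shares belong beside the counts of each list and marker set below as well. HFD+PE against chow joins the diet and the extract, so that a difference in it is not one of the extract alone. The 3 higher ones here were Aadac, Lcat and Acat1, the mitochondrial thiolase (0.46, SE 0.19). Aadac, an arylacetamide deacetylase related to Nceh1, was higher by 0.42 (SE 0.13) in HFD+PE and by 0.55 (SE 0.13) in HFD, each against chow. Lcat, which esterifies cholesterol on plasma lipoproteins, was higher by 0.19 (SE 0.08) in HFD+PE than in chow, and Pnpla2, the adipose triglyceride lipase, was lower (-0.41, SE 0.17). Soat1, the esterifying enzyme of most tissues, differed by 0.04 (SE 0.10) between HFD+PE and chow, and the lysosomal ester hydrolase gene Lipa by -0.05 (SE 0.11). Both were chosen for their roles after their values had been seen. Soat1 averaged 3.56 in HFD+PE and 3.52 in chow, and whether its probe set was above background is unknown. Acat2, at -1.26 (SE 0.28), is the thiolase of sterol synthesis and not Soat2, which shares an old name with it.

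LXR targets outside the set lay on both sides of 0. Of 18 measured genes, 8 were higher and 10 lower in HFD+PE than in chow, 3 and 4 of them at an unadjusted p under 0.05, with a median of -0.03. The 4 lower ones at that p were the lipid synthesis genes Scd (-1.64, SE 0.41), Fasn (-1.49, SE 0.34) and Acaca (-0.73, SE 0.14), and Pltp, the phospholipid transfer protein gene (-0.57, SE 0.17). The 3 higher ones at that p were Srebf1 (0.55, SE 0.26), Slc2a4 (0.25, SE 0.10) and Apoc2 (0.22, SE 0.08). In HFD against chow these stood at 0.76 (SE 0.26), 0.10 (SE 0.10) and 0.17 (SE 0.08), in the same order. Scd, Fasn, Acaca and Pltp stood there at 0.11, -0.59, -0.24 and -0.33. Slc2a4 averaged 4.42 in HFD+PE and 4.17 in chow, and whether its probe set was above background is unknown. Several of these genes answer to SREBP and insulin as well. Abcg5, at 1.16, and Scd, at -1.64, thus lay on opposite sides of 0 in the same comparison. Against HFD, 0 of the 18 had such a p on the higher side in HFD+PE and 3 on the lower, namely Scd (-1.75, SE 0.41), Fasn (-0.90, SE 0.34) and Acaca (-0.49, SE 0.14). Of all genes, 1.64% had one on the higher side there and 1.06% on the lower.

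Of 18 measured LXR partners and cofactors, 8 were higher and 9 lower in HFD+PE than in chow, with a median of -0.01. An unadjusted p under 0.05 was found for 1 of them, beside 11.1% of all genes: Tbl1xr1, a corepressor subunit (0.28, SE 0.12). Rxra, the partner of LXR on DNA, stood at -0.06 (SE 0.11), and the coactivator gene Ep300 at 0.15 (SE 0.10). Nr0b2, the repressor SHP, was at 0.99 with an SE of 0.49. Among 10 enzymes that make or use oxysterols and bile acids, 7 were higher and 3 lower, and 1 had an unadjusted p under 0.05, the sterol isomerase gene Ebp (-0.53, SE 0.15). Cyp7a1, the rate-limiting enzyme of bile acid synthesis, was at 0.62 in HFD+PE against chow (SE 0.46), the bile acid hydroxylase gene Cyp8b1 at 0.32 (SE 0.17) and the oxysterol hydroxylase gene Cyp39a1 at 0.15 (SE 0.10).

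Lysosomal exit and sterol carrier genes had a median of -0.09 over 23 measured genes in HFD+PE against chow, with 4 lower and 1 higher at an unadjusted p under 0.05. Lower were Tmem97 (-0.81, SE 0.19), which binds Npc1, Npc2, the lysosomal partner of Npc1 (-0.36, SE 0.12), Osbpl9, an oxysterol-binding family member (-0.31, SE 0.08), and the mitochondrial membrane protein gene Tspo (-0.37, SE 0.17). Osbpl8, of the same family as Osbpl9, was higher (0.32, SE 0.10). In HFD against chow Tmem97, Npc2, Osbpl9, Tspo and Osbpl8 stood at -0.56, -0.31, -0.15, -0.14 and 0.20. In the list of high density lipoprotein genes 8 of 11 were higher and 3 lower, and an unadjusted p under 0.05 was found for the uptake receptor gene Scarb1 (0.38, SE 0.11), Lcat and Pltp. The transporter gene Abcc6 was at 0.20 (SE 0.11).

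In the list around the LDL receptor and SREBP2, 5 of 11 measured genes were higher and 6 lower in HFD+PE than in chow, 1 and 3 of them at an unadjusted p under 0.05. Insig1, which holds SREBP back when sterols are plentiful, was at -1.57 (SE 0.49), the sterol synthesis gene Sqle at -1.56 (SE 0.55), Srebf2 at -0.39 (SE 0.15) and Scap, its escort, at 0.20 (SE 0.09). In HFD against chow they stood at -0.66, -1.17, -0.20 and -0.03, in the same order. Of 8 canalicular and related transporters, 3 were higher and 5 lower, with a median of -0.13. An unadjusted p under 0.05 was found for the 3 higher ones, the lipid flippase gene Atp8b1 (0.56, SE 0.18), the drug exporter gene Abcb1a (0.60, SE 0.25) and the bile acid uptake gene Slc10a1 (0.23, SE 0.09). In HFD against chow these stood at 0.47, 0.03 and 0.18, in the same order. The conjugate exporter gene Abcc2 was at -0.27 (SE 0.17), and at -0.47 in HFD+PE against HFD. None of the genes in these lists passed an adjusted p of 0.05 in limma.

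**Figure D5:**
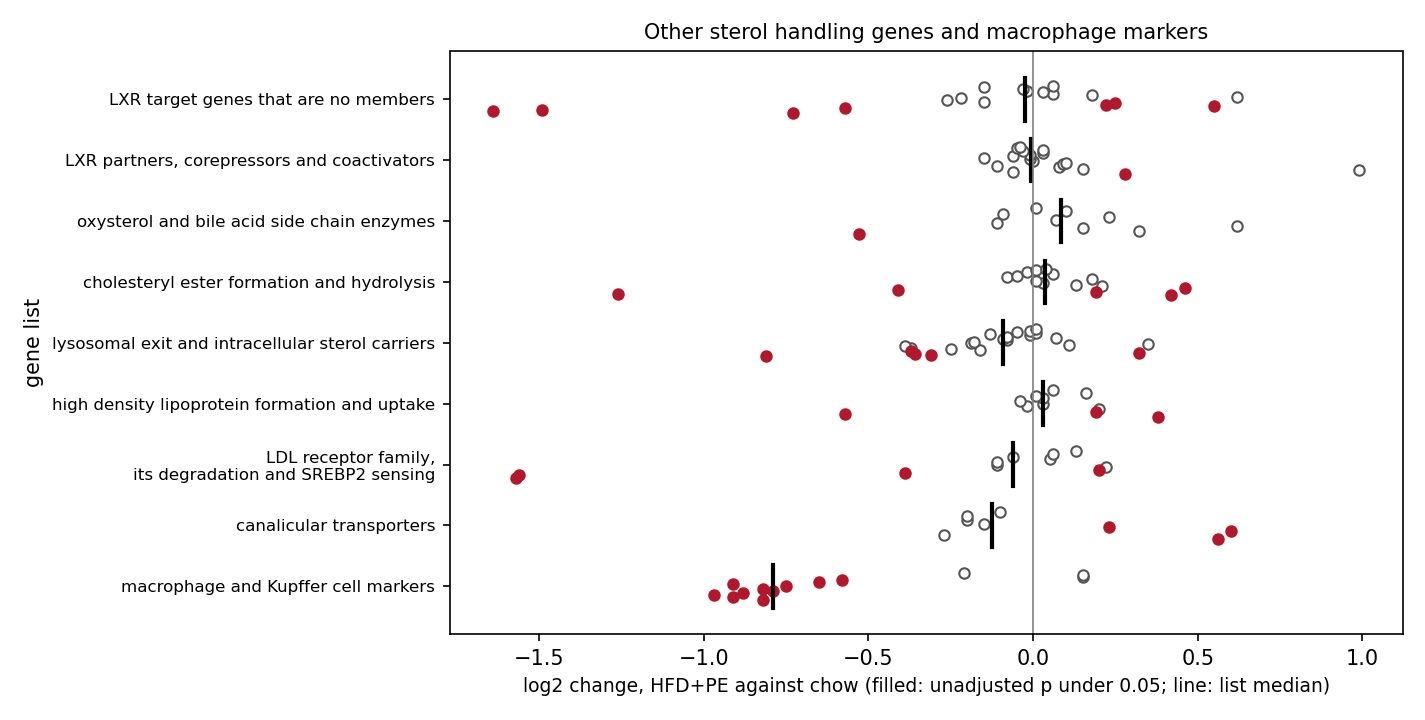
Log2 change in HFD+PE against chow of every measured gene in 8 lists of sterol handling and in the macrophage markers; each point is a gene, filled where its unadjusted p was under 0.05, and the line is the list median. Macrophage markers lie furthest below 0 (median -0.79), and the medians of the sterol lists lie between -0.13 and 0.09.

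Macrophages express Abca1, Abcg1 and Nceh1 too, and markers of these cells were mostly lower in HFD+PE and HFD than in chow, none past an adjusted p of 0.05. Of 16 listed markers 13 were measured, and in HFD+PE against chow 2 were higher and 11 lower, with a median of -0.79. At an unadjusted p under 0.05, 0 were higher and 10 lower, beside 6% and 5.14% of all genes. In HFD against chow 0 were higher and 13 lower (median -0.52), 6 of them at such a p, beside 3.57% of all genes on the lower side. In HFD+PE against HFD 3 were higher and 10 lower (median -0.27), 0 of them at such a p, beside 2.7% of all genes. The mean level of the 13 was 7.55 to 8.42 in HFD+PE, 7.78 to 8.65 in HFD and 8.41 to 9.20 in chow animals. Among those with the smallest F test p, Clec4f, a lectin of Kupffer cells, was at -0.97 (SE 0.24) and the complement genes C1qa, C1qb and C1qc at -0.82 (SE 0.20), -0.88 (SE 0.25) and -0.91 (SE 0.22). The 2 higher markers were Lyz2 and Cd14, at 0.15 each (SE 0.23 and 0.24). In bulk liver, fewer cells of a type and less RNA per cell cannot be told apart.

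Between animals, Nceh1 tended to stand higher where these markers stood lower, which did not pass after adjustment. With group means removed, its r to the marker mean was -0.61 over 15 animals (rho -0.64, permutation p = 0.028 and 0.0315; adjusted over 8 genes, 0.112 and 0.126), and -0.56 without chow 2 and HFD+PE 1, the animals farthest from the marker median. Abcg1 went with the markers, with r 0.68 and rho 0.73 (permutation p = 0.0118 and 0.00343; adjusted p = 0.0942 and 0.0274), and r 0.54 without those 2 animals. The genes most like Abcg1 among 14216 were Cd93 and Ifngr1, both at r 0.89. Over the 10 animals outside the higher set of hybridization controls, r was 0.50 for Abcg1 and -0.51 for Nceh1 (permutation p = 0.268 and 0.232). Abcg5 had an r of -0.01 to the markers (rho 0.00, permutation p = 0.974 and 0.997; adjusted p the same). Stellate cell markers had a median of -0.35 in HFD+PE against chow, with 9 of 11 lower and 2 higher. At an unadjusted p under 0.05, 5 were lower and 0 higher, among them Vim (-0.71), Timp1 (-0.43), Col1a2 (-0.64) and Dcn (-0.67). In HFD against chow Vim, Timp1, Col1a2 and Dcn stood at -0.60, -0.37, -0.44 and -0.49. Endothelial markers had a median of -0.06, lymphocyte markers -0.05, cholangiocyte markers -0.03, hepatocyte markers -0.02, adipocyte and pancreas markers 0.00 and 3 measured erythrocyte markers -0.26. The part of these markers in the results was not tested.

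For the other measured genes, the most alike were Hddc2 and Smoc2 for Nr1h3 (r = 0.93 and 0.86), Josd1 and Ryk for Nr1h2 (0.91 each), Sos2 and Fbxo3 for Abca1 (0.82 and 0.81), Rtn4ip1 and Arhgap1 for Mylip (0.86 each), and Cd164l2 and Nkd2 for Nceh1 (0.89 and 0.87). These are the highest of 14216 values of r over 15 animals with group means removed, given as a description.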

How the data were processed

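Liver RNA of 18 rats' samples was measured on Affymetrix arrays. The values were made by the authors with RMA in Affymetrix Expression Console, as the submitters' processing notes list, with no version named. The deposited log2 signals covered 31099 probe sets and were rounded to 1 decimal. Of the 31042 that are no controls, 20826 named 1 gene symbol, 436 several and 9780 none, and 20758 matched RefSeq genes of GRCr8 by Entrez identifier, which changed 0 symbols. Precision is limited by the number of animals.

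The brightest probe set stood for each of 14217 genes. All 3 comparisons of groups came from limma 3.58.1 under R 4.3.3 (1 mean per group over 15 animals, eBayes, two-sided, Benjamini-Hochberg over all genes); the script was tested on simulated data. Other probe sets were fitted over all 31042. Correlations used 100000 permutations within groups. The averaging of 3 array pairs is an inference from the values, since the labels call all arrays biological replicates. Replicate numbers were not used to pair samples in the main fit: of 18 same-numbered pairs 4 had r over 0.1. In 3 of the 18 the same number gave the highest r, all between chow and HFD+PE (numbers 1, 3 and 4, r at most 0.19). The genes, lists and tests were chosen with earlier results of these data known. The named genes were all 10 of the set, the 4 with the smallest F test p of each sterol list and of the macrophage and stellate markers, and the 2 most alike each gene. The rule also covered the other marker lists, which are given by medians only; any further gene is named for its role or for completing a count, after its value was seen. The relation to macrophage markers was added after the data were seen. Alternatives covered animals, hybridization controls, normalization, probe sets, dim genes and the variance prior.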

Additional observations from a re-analysis of the deposited data

How the results depend on the processing

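The 8 genes were refitted under 25 alternatives. Nceh1 and Abcg5 kept their direction in HFD+PE against chow under each, at 0.72 to 0.99 and 0.99 to 1.39, with adjusted p from 0.0148 to 0.245 and from 0.0348 to 0.306; Nceh1 passed with 18 separate arrays and with the replicate block on them (0.85, adjusted p = 0.0329). Genes past an adjusted p of 0.05 in HFD+PE against chow numbered 0, but 145 with 18 separate arrays, 119 with the replicate block, 3 on the lower set of hybridization controls and 0 to 26 without 1 animal (26 without HFD+PE 3-4). In HFD+PE against HFD they numbered 0 to 2 without 1 animal, and in HFD against chow 0 to 1 and 1 on the lower set. Genes of the set at an unadjusted p under 0.05 in HFD+PE against HFD were 1, or 2 with 18 arrays, the replicate block, arrays centred on their medians, the trended prior, or without the 3 arrays numbered 1 in the description, and 1 to 2 without 1 animal; in HFD against chow 1 to 2, and in HFD+PE against chow 3, or 2 to 4 over the alternatives. Over all genes that count was 665 with the spike-in covariate (1088 otherwise) in HFD against chow, and in HFD+PE against HFD 725 with 18 arrays, 711 with the block, 610 on the lower set and 600 without HFD+PE 2 (384 otherwise).

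Changes near 0 turned sign, none past the threshold. In HFD against chow, Abca1 was -0.0483 and Abcg8 -0.0833 with the covariate, and Abcg8 -0.0133 on the lower set; without 1 animal, Abcg8 ran from -0.045 to 0.13, Abcg1 from -0.12 to 0.055 and Nr1h3 from -0.085 to 0.04. In HFD+PE against HFD, Mylip was 0.03 on the lower set, Abcg1 0.0267 as the mean of its probe sets and Nr1h3 0.03 without the arrays numbered 1 (-0.06 to 0.065 without 1 animal). In HFD+PE against chow, Nr1h3 was 0.0175 without those arrays and -0.0725 to 0.0275 without 1 animal. The cause of these moves was not tested. Of 600 list medians 9 moved, all of sterol carriers in HFD against chow. Abcg8 and Mylip gave no value without dim genes.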
